A study of Mus musculus with 18 samples.

Results

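The genes described here are 10 that make, recycle or use nicotinamide adenine dinucleotide (NAD) in mouse liver, namely Nampt, Nmrk1, Nmnat1, Nmnat3, Naprt, Qprt, Acmsd, Nadk, Nnmt and Sirt1. They were picked by gene symbol, with earlier results of these data known, and all 10 were found among the 14451 genes of the table. Shares of the 10 genes set beside those of all genes thus describe the set and do not test it. The livers came from wild-type (WT) male mice of 8 to 9 weeks held in a cycle of 12 h of light and 12 h of dark. Zeitgeber time (ZT) gives the hours since lights on, and livers were harvested whole at ZT1, ZT5 and ZT9 in the light and at ZT13, ZT17 and ZT21 in the dark. At each of the 6 times 3 livers were sequenced, 1 per mouse, which gives 18 livers in all. The mice of every group shared the genotype, no treatment is named, and the strain is not given in the sources used here. According to the methods, the mice sequenced were those of each group with the best RNA.

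NAD is a carrier of electrons in metabolism and is also consumed by sirtuins, poly(ADP-ribose) polymerases and related enzymes, which release nicotinamide. Cells rebuild it from that nicotinamide through NAMPT, from nicotinamide riboside through the NMRK kinases, from nicotinic acid through NAPRT, and, in liver above all, from tryptophan through quinolinate and QPRT. The salvage enzyme NAMPT and the deacetylase SIRT1 are known from earlier work as a link between NAD and the circadian clock, since CLOCK and BMAL1 act on Nampt and SIRT1 acts on clock proteins.

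The values are reads of whole-liver polyA RNA, estimated per gene and normalized by the authors to 1000000 reads of an effective library size. The totals of the normalized values thus differed between livers, from 941088 (replicate 1 of ZT5) to 1077230 (replicate 2 of ZT17). The livers held from 10268168 to 23242842 estimated reads, with a median of 12078875. Among the 10 genes, the reads behind a value ranged from 29 (Nmnat3 in 1 liver of ZT13) to 4291.94 (Nadk in replicate 3 of ZT5). A fall in such a value can come from fewer cells of a type or from less RNA per cell, which bulk samples cannot tell apart. The summed value of 8 hepatocyte markers, most of it Alb, was between 80884 and 113255 in every liver. Its mean was highest at ZT17 (105955) and lowest at ZT9 (83370). By 18 clock genes, 17 of the 18 livers were nearest to the mean of their own time point. The exception was replicate 3 of ZT5, the deepest library, which was nearer to ZT9. Replicate 1 of ZT5 also stood apart, with the highest summed Kupffer cell (300.1), endothelial (254.4), stellate cell (316.0) and red blood cell (673.9) markers of all 18 livers. For results of the 10 genes that turn on either liver, values without it are given. Among pairs of times this was done for those with ZT5.

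On log2(value + 1), limma fitted a 24 h cosine to each gene, and genes were called rhythmic where the *P*-value, adjusted by Benjamini–Hochberg over all genes, was below 0.05. Of the 10 genes 8 were called, against 35.3% of the 14449 genes tested and 41.4% of the 12480 genes with a mean value of at least 1. Their median amplitude, the distance from the middle of the cosine to its peak on the log2 scale, was 0.30, and that of all genes was 0.16. The fitted peaks of Nadk, Nampt, Nmrk1 and Nnmt lay in the hours after lights off. Those of Naprt and Acmsd lay near the middle of the dark, and those of Qprt and Nmnat3 in the light. The interval of the Nadk peak, from 11.4 h to 14.3 h, began before lights off. That of Qprt, from −0.82 h to 4.18 h, began before lights on. Sirt1 and Nmnat1 were not called. The rank-based method JTK called 4 of the 10 genes (Nampt, Nmrk1, Nadk and Nnmt), against 14.1% of all genes. Among genes with a mean of at least 1 the JTK share was 18.5%. Over all genes it was 8.76% without replicate 2 of ZT5 and 22.4% with equal cosines taken as 1 group. A test for any difference among the 6 time points called 6 of the 10, all but Naprt, Qprt, Sirt1 and Nmnat1. It called 26.3% of all genes and 32.1% of those with a mean of at least 1. The livers at the highest and at the lowest time point did not overlap in 8 of the 10 genes, and this held for 70.8% of all genes.

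**Figure D1:**
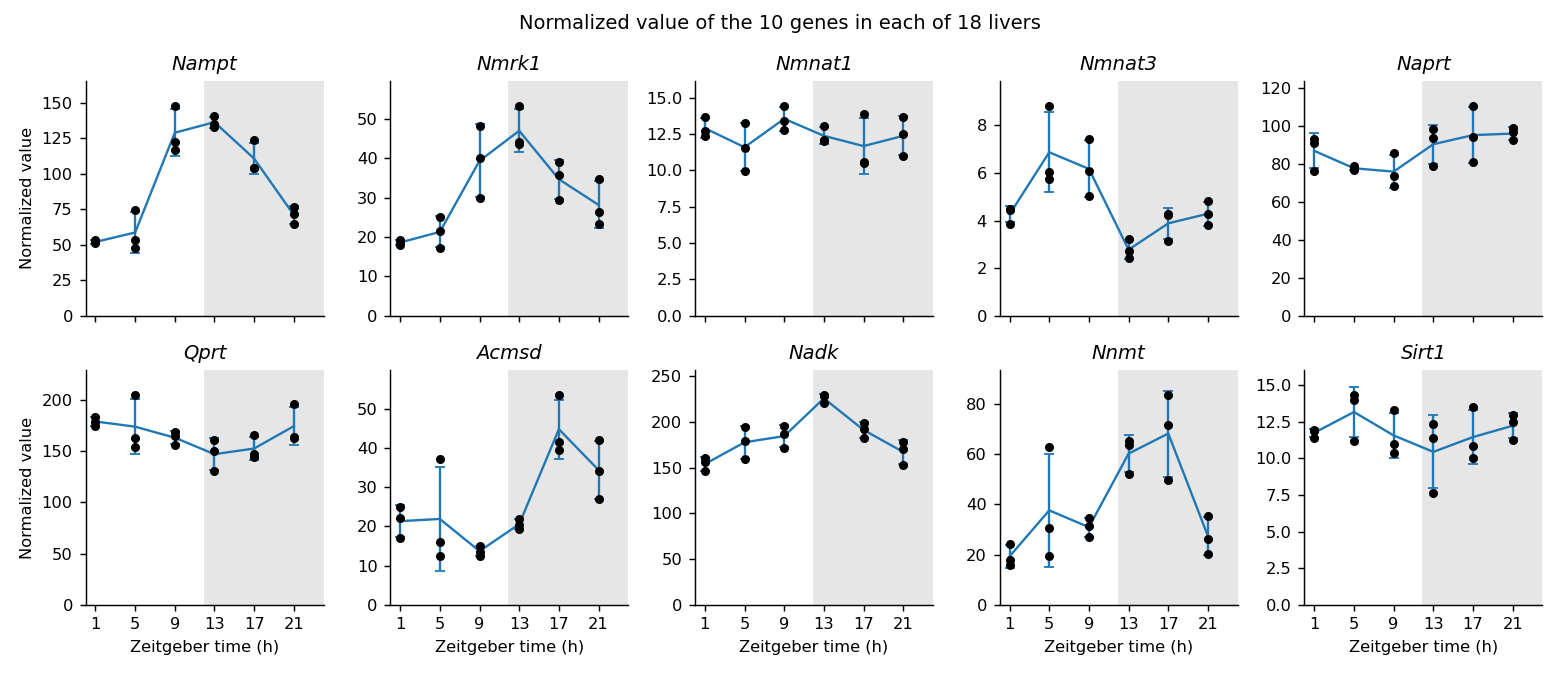
Normalized value (linear axis from 0) of each of the 10 genes against zeitgeber time in hours, with 1 point per liver and lines through the mean of 3 livers with its SD. The dark phase is shaded, and the panels of Nampt and Nmrk1 rise from ZT5 to ZT9 and are highest at ZT13, at means of 136 and 47.0.

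Nampt (ENSMUSG00000020572, GRCm38 chromosome 12, 32819545 to 32853349, + strand) encodes the rate-limiting enzyme of NAD salvage. In the light its values were 53.2, 51.1 and 51.7 at ZT1, 47.7, 53.5 and 74.8 at ZT5, and 148, 117 and 122 at ZT9. In the dark they were 135, 133 and 141 at ZT13, 124, 104 and 104 at ZT17, and 64.5, 76.9 and 71.4 at ZT21. All livers of ZT9, ZT13 and ZT17 were above all livers of ZT1, ZT5 and ZT21. The mean at ZT13 (136 ± 3.93, SD, n = 3) was 2.62 times that at ZT1 (52.0 ± 1.09, SD, n = 3). The cosine had an amplitude of 0.75 ± 0.067 (SE) and a peak at 13.1 h with a 95% half-width of 0.712 h, with an adjusted *P*-value of 1.23e-06 by limma, the 62nd lowest *P*-value of all genes. JTK gave q = 0.00863. The highest of the ZT5 livers was replicate 3, and without that liver the amplitude was 0.77.

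Nmrk1 (ENSMUSG00000037847, chromosome 19, 18631950 to 18652428, + strand) encodes nicotinamide riboside kinase 1, which makes nicotinamide mononucleotide (NMN) from the riboside. The livers gave 19.3, 18 and 18.5 at ZT1, 21.6, 17.3 and 25.1 at ZT5, and 48.3, 29.8 and 40.0 at ZT9. They then gave 53.3, 43.6 and 44.2 at ZT13, 29.3, 39.0 and 35.8 at ZT17, and 34.8, 23.3 and 26.3 at ZT21. As for Nampt, the 3 lowest time points were ZT1, ZT5 and ZT21, but single livers of ZT21 reached the range of ZT9 and ZT17. The mean at ZT13, 47.0 ± 5.42 (SD, n = 3), was 2.53 times the 18.6 ± 0.664 (SD, n = 3) at ZT1. The amplitude was 0.62 ± 0.078 (SE) and the peak 13.4 h, with a half-width of 1.00 h and an adjusted *P*-value of 4.2e-05 by limma, and JTK gave q = 0.0104.

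NMN is turned into NAD by NMNAT1, an enzyme of the nucleus, and by NMNAT3, described in mitochondria and in red blood cells. Nmnat3 (ENSMUSG00000032456, chromosome 9, 98287435 to 98420438, + strand) was highest at ZT5 and lowest at ZT13. Its values were 4.46, 3.87 and 4.44 at ZT1, 6.04, 5.76 and 8.80 at ZT5, and 6.09, 7.41 and 5.01 at ZT9. At ZT13 they were 2.42, 2.70 and 3.21, at ZT17 3.12, 4.28 and 4.24, and at ZT21 4.80, 4.27 and 3.79. Every liver of ZT5 and ZT9 was above every liver of the other 4 times, and the mean at ZT5 (6.87 ± 1.68, SD, n = 3) was 2.47 times that at ZT13 (2.78 ± 0.399, SD, n = 3). The cosine peaked at 4.85 h with a half-width of 1.99 h and an amplitude of 0.38 ± 0.094 (SE), with an adjusted *P*-value of 0.0134, and the amplitude was 0.45 with a pseudocount of 0.1 and 0.22 with 5. Without replicate 3 of ZT5, the liver of highest value, the amplitude was 0.32 and the adjusted *P*-value 0.0401. JTK did not call Nmnat3 (q = 0.104).

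Summed markers of Kupffer and endothelial cells had high means at the same times. The Kupffer cell sum over 8 markers had its highest time point mean at ZT9 (254.6) and its lowest at ZT21 (150.0), and the endothelial sum over 8 markers its highest at ZT5 (222) and its lowest at ZT21 (145). The lowest mean at any time of any marker on both lists was 1.56 (Marco at ZT21), so none was at 0, and 4 of the 8 Kupffer cell and 3 of the 8 endothelial markers were called by the 24 h cosine. Nmnat3 itself was lowest at ZT13. The sum over 5 lymphocyte and neutrophil markers was likewise highest at ZT5 (4.54) and lowest at ZT13 (2.13), with none called rhythmic. The stellate cell (246) and red blood cell (368) sums were highest at ZT5 too, and lowest at ZT21 (202) and ZT9 (184). At ZT5, however, replicate 1 stood far above replicates 2 and 3. The stellate cell sums there were 316, 202 and 220, and the red blood cell sums 674, 257 and 172. The hepatocyte and cholangiocyte sums were highest at ZT17, the pancreas acinar sum at ZT1 and the adipocyte marker at ZT13. In ZT5 replicate 1, which had the highest red blood cell sum, Nmnat3 was at 6.04, below its 8.80 in replicate 3, where that sum was 172. The part of these cells in the time course of Nmnat3 was not tested.

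Nmnat1 (ENSMUSG00000028992, chromosome 4, 149467572 to 149485202, − strand) was between 9.97 and 14.4 in all 18 livers. The time point means went from 11.6 ± 1.64 (SD, n = 3) at ZT5 to 13.5 ± 0.815 (SD, n = 3) at ZT9, and the livers of these times overlapped. The fold from trough to peak of the fitted cosine was 1.05, with a 95% interval from 0.904 to 1.22, and the adjusted *P*-value was 0.847. The interval was taken at the fitted peak time by an approximation. It can fall below 1 and may be too narrow where the amplitude is small. A fold above 1.22 lay outside the interval for Nmnat1, and the fold of Nmnat3 was 1.69 with an interval from 1.29 to 2.22.

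Naprt (ENSMUSG00000022574, chromosome 15, 75890956 to 75894481, − strand) encodes the first enzyme of the Preiss–Handler route from nicotinic acid. Its time point means lay between 76.0 ± 8.79 (SD, n = 3) at ZT9 and 96.1 ± 3.26 (SD, n = 3) at ZT21, a ratio of 1.26. The ranges of these 2 times did not overlap, since the highest liver of ZT9 was at 85.7 and the lowest of ZT21 at 92.4. The cosine, of amplitude 0.18 ± 0.048 (SE), peaked at 18.8 h with a half-width of 2.15 h and was called at an adjusted *P*-value of 0.0214. The call was lost without replicate 3 of ZT17, the liver of highest value (111), with an adjusted *P*-value of 0.0502, and with values rescaled to equal totals, with 0.119. Naprt shares 277 exon bases with Eef1d on the same strand, and reads there were divided between them by estimate.

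On the route from tryptophan, QPRT turns quinolinate into nicotinic acid mononucleotide, and ACMSD draws its precursor away from quinolinate. Acmsd (ENSMUSG00000026348, chromosome 1, 127729413 to 127767978, + strand) had values of 16.9, 22.2 and 24.9 at ZT1, 37.2, 15.9 and 12.6 at ZT5, and 13.6, 14.96 and 12.5 at ZT9. In the dark the livers gave 21.9, 19.4 and 20.4 at ZT13, 53.5, 39.4 and 41.5 at ZT17, and 34.2, 41.9 and 27.0 at ZT21. The livers of ZT17 and ZT21 were above all others except replicate 1 of ZT5. The mean at ZT17 (44.8 ± 7.57, SD, n = 3) was 3.27 times that at ZT9 (13.7 ± 1.22, SD, n = 3), with livers that did not overlap. The amplitude was 0.69 ± 0.127 (SE) and the peak 19.2 h with a half-width of 1.48 h, at an adjusted *P*-value of 0.00153. JTK gave q = 0.0537 for Acmsd. Without replicate 1 of ZT5 the ZT5 mean fell from 21.9 to 14.2, the amplitude was 0.83 with an adjusted *P*-value of 5.01e-06, and JTK called the gene at q = 0.0166. An antisense gene on the other strand shares 94 exon bases with Acmsd, and the library kit is not stated to keep strand.

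Qprt (ENSMUSG00000030674, chromosome 7, 127107114 to 127122226, − strand) stayed between 130.4 and 204 in all livers. Its mean was highest at ZT1 (179 ± 4.32, SD, n = 3) and lowest at ZT13 (147 ± 15.3, SD, n = 3), a ratio of 1.22. The highest value, 204, was that of replicate 1 of ZT5, without which the ZT5 mean went from 174 to 158 and the amplitude was 0.13 (adjusted *P*-value 0.0701). With all livers the cosine had an amplitude of 0.14 ± 0.045 (SE), under the median of all genes, and a peak at 1.68 h with a half-width of 2.50 h. With an adjusted *P*-value of 0.0485 the gene was just past the threshold, and leaving out 1 liver lost the call for 14 of the 18, that is all but replicates 2 and 3 of ZT5, 1 of ZT13 and 2 of ZT17. The adjusted *P*-values were then between 0.0508 and 0.123, the highest without replicate 2 of ZT13. Qprt and Acmsd thus had peaks 1.68 h and 19.2 h into the cycle, with 95% ranges from −0.82 h to 4.18 h and from 17.7 h to 20.6 h.

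**Figure D2:**
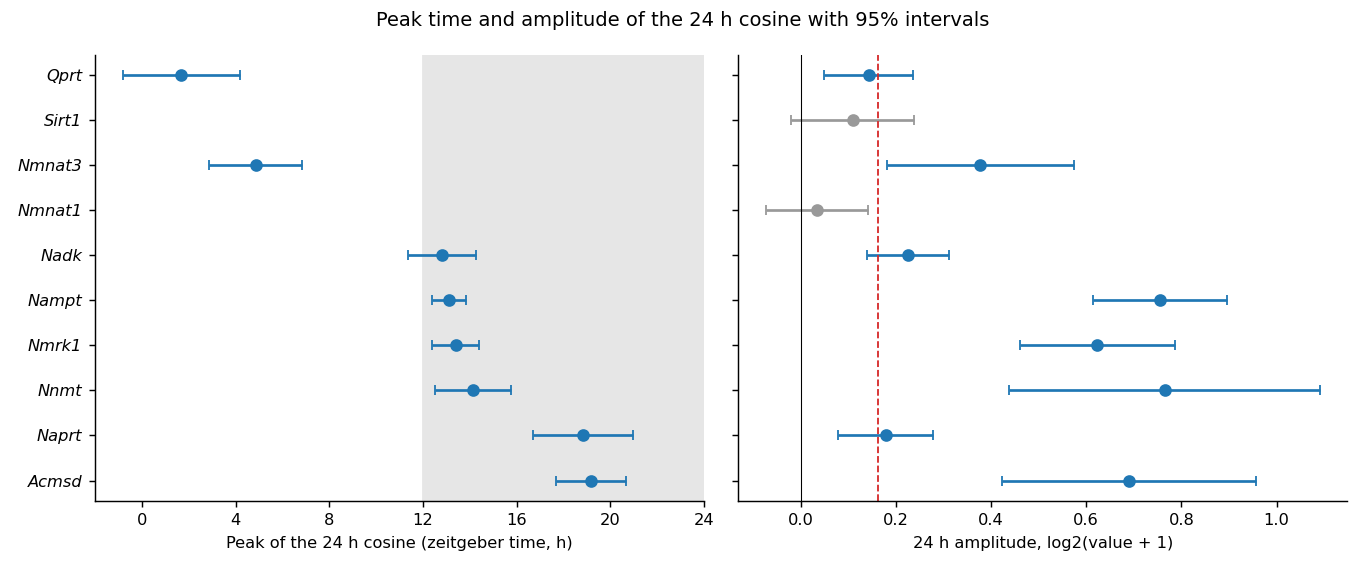
Peak time in hours of zeitgeber time (left, for the 8 genes called) and amplitude on the log2 scale (right, for all 10) of the 24 h cosine, with bars for the 95% intervals. The dark phase is shaded, the dashed line marks the median amplitude of all genes (0.162), and gray points are Sirt1 and Nmnat1, whose intervals reach 0.

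NAD kinase phosphorylates NAD to NADP. Nadk (ENSMUSG00000029063, chromosome 4, 155562378 to 155591001, + strand) had values of 146, 156 and 160.0 at ZT1, 195, 159 and 179 at ZT5, and 195, 172 and 186 at ZT9. The values were 228, 229 and 220.1 at ZT13, 199, 182 and 192 at ZT17, and 153, 178 and 170 at ZT21. Every liver of ZT13 was above every other liver. The ZT13 mean of 226 ± 4.84 (SD, n = 3) was 1.47 times the ZT1 mean of 154 ± 7.28 (SD, n = 3). The amplitude, 0.23 ± 0.041 (SE), was smaller than that of Nampt, but the peak of Nadk at 12.8 h with a half-width of 1.45 h overlapped the peak range of Nampt. The adjusted *P*-value was 0.00132, and JTK gave q = 0.0148.

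Nicotinamide N-methyltransferase, the product of Nnmt, methylates nicotinamide and so removes it from salvage. Nnmt (ENSMUSG00000032271, chromosome 9, 48591877 to 48605153, − strand) gave 24.3, 17.8 and 15.7 at ZT1, 62.8, 19.5 and 30.4 at ZT5, and 26.9, 31.3 and 34.5 at ZT9. It gave 65.2, 63.4 and 51.9 at ZT13, 83.4, 49.6 and 71.4 at ZT17, and 35.5, 26.1 and 20.3 at ZT21. The livers of ZT13 and ZT17 were above all other livers except replicate 1 of ZT5. The mean at ZT17 (68.1 ± 17.1, SD, n = 3) was 3.54 times that at ZT1 (19.3 ± 4.45, SD, n = 3), the highest such ratio of the 10 genes. The peak of the cosine was at 14.1 h with a half-width of 1.63 h, the amplitude 0.76 ± 0.155 (SE) and the adjusted *P*-value 0.00335, and JTK gave q = 0.0349. The JTK call was lost, at q between 0.0560 and 0.0900, without any 1 of the livers of ZT1, replicate 2 of ZT5, 1 or 2 of ZT13, or 1 or 3 of ZT17. Without replicate 1 of ZT5 the ZT5 mean was 24.98 in place of 37.6, the amplitude 0.90 and the adjusted *P*-value 5.87e-05. That liver also had the highest stromal and red blood cell marker sums, and the part of those cells in its Nnmt and Acmsd values was not tested.

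Sirt1 (ENSMUSG00000020063, chromosome 10, 63319005 to 63381704, − strand) encodes an NAD-dependent protein deacetylase. Its values were 11.4, 12.0 and 11.9 at ZT1, 11.2, 14.0 and 14.3 at ZT5, and 10.4, 13.3 and 11.01 at ZT9. They were 7.62, 12.3 and 11.4 at ZT13, 13.5, 10.9 and 10.02 at ZT17, and 11.3, 13.0 and 12.5 at ZT21. The ranges of all 6 time points overlapped, and the lowest value was that of 1 liver at ZT13. The highest mean, 13.2 ± 1.696 (SD, n = 3) at ZT5, was 1.26 times the lowest, 10.45 ± 2.50 (SD, n = 3) at ZT13, and the livers overlapped. Without replicate 3 of ZT5, the highest liver, the ZT5 mean of Sirt1 was 12.6. The cosine fold from trough to peak was 1.16 with a 95% interval from 0.973 to 1.39, at an adjusted *P*-value of 0.335. A rhythm of Sirt1 of up to 1.39-fold thus stayed within the interval, and one as large as that of Nampt (2.85-fold, 95% interval from 2.34 to 3.46) did not. As for Nmnat1, the interval of Sirt1 may be too narrow. An antisense gene shares 65 exon bases with Sirt1.

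When the 9 livers of the dark were compared with the 9 of the light by limma, 6 of the 10 genes were higher in the dark (11.9% of all genes) and 1 was lower (12.3% of all genes). With values rescaled to equal totals these shares of all genes were 7.45% and 17.1%. On the log2 scale, Nnmt was higher by 0.79 ± 0.184 (SE, adjusted *P*-value 0.006003) and Acmsd by 0.78 ± 0.162 (SE, adjusted *P*-value 0.00274). Nmrk1 was higher by 0.50 ± 0.105 (SE) and Nampt by 0.48 ± 0.081 (SE), with adjusted *P*-values of 0.00294 and 0.000559. The differences of Naprt (0.22) and Nadk (0.17) were smaller and passed at adjusted *P*-values of 0.0325 and 0.0288. Nmnat3 fell by 0.53 ± 0.091 (SE) in the dark, with an adjusted *P*-value of 0.000685. As a gene of low values it depended on the pseudocount, and its difference was −0.63 with 0.1 and −0.31 with 5 in place of 1, with adjusted *P*-values of 0.000959 and 0.000721. For Sirt1 the difference was −0.10 ± 0.089 (SE, adjusted *P*-value 0.461). The calls of Nadk and Naprt were lost when values were rescaled to equal totals, with adjusted *P*-values of 0.193 and 0.113. That of Nadk was also lost without replicate 1 of ZT1, 2 of ZT5, 2 of ZT9, 1 of ZT17, or 2 or 3 of ZT21, with adjusted *P*-values between 0.0514 and 0.0594. That of Naprt was lost without any 1 of 11 livers, all but replicates 2 and 3 of ZT1, 3 of ZT5, 2 of ZT9, 3 of ZT13, 2 of ZT17 and 2 of ZT21, with adjusted *P*-values between 0.0508 and 0.0695.

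Every pair of time points was then compared, with adjustment within each pair. Of the 10 genes, 6 had at least 1 called pair, against 39.8% of all genes, and 33 of their 150 comparisons were called, against 8.85% over all genes and pairs. Called pairs numbered 9 of 15 for Nampt, 7 for Nmrk1, 5 each for Nmnat3 and Nnmt, 4 for Acmsd and 3 for Nadk. Without replicate 3 of ZT5, ZT17 against ZT5 was lost for Nnmt (adjusted *P*-value 0.113) and Acmsd (0.0507), and ZT21 against ZT5 for Nmnat3 (0.159). Without replicate 1 of ZT5, the Nmnat3 pair was lost too (0.0576). Calls gained without replicate 1 were ZT13 against ZT5 for Nnmt (0.00607) and ZT21 against ZT5 for Acmsd (0.00199). Without replicate 3, ZT21 against ZT5 was gained for Nampt (0.0351). The steepest adjoining step of Nampt was from ZT5 to ZT9, by 1.14 ± 0.140 (SE) on the log2 scale with an adjusted *P*-value of 0.000526, and by 1.01 without replicate 1 of ZT5 and 1.33 without replicate 3. Over the same 4 h Nmrk1 rose by 0.85 ± 0.182 (SE) with an adjusted *P*-value of 0.0311. This call was lost without replicate 1 or 2 of ZT5 or 1 or 3 of ZT9, with rises between 0.69 and 0.86 and adjusted *P*-values between 0.106 and 0.128. From ZT17 to ZT21 Nampt fell by 0.63 ± 0.140 (SE), with an adjusted *P*-value of 0.0368, a call that was lost without any 1 of the 6 livers of these times, with adjusted *P*-values between 0.0584 and 0.167, and without replicate 2 of ZT1, with 0.0523. Between ZT9 and ZT17 Acmsd rose by 1.63 ± 0.281 (SE), with an adjusted *P*-value of 0.00116. Nmnat3 fell by 0.92 ± 0.157 (SE) between ZT9 and ZT13, with an adjusted *P*-value of 0.00214. When the 6 times of each gene were put in order of their means, 1 of the 50 steps between neighbours was called, the step of Nampt from ZT17 to ZT21. The other 49 steps did not pass the test, although in 3 of them, ZT13 over ZT17 for Nadk, ZT9 over ZT21 for Nmnat3 and ZT13 over ZT9 for Acmsd, the livers did not overlap. Neighbours in such an order have the smallest differences by construction, and the shares over all genes were not determined. These counts are therefore not read as a trait of the 10 genes.

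**Figure D3:**
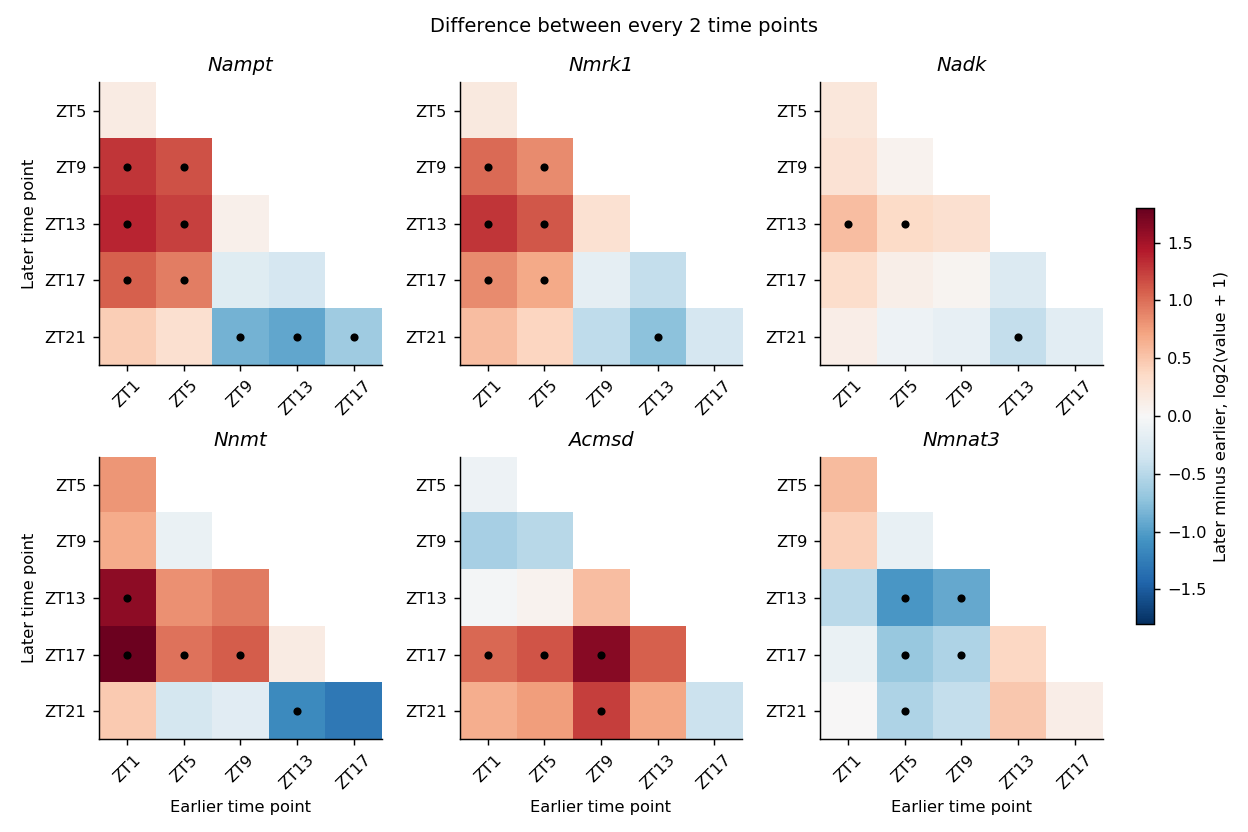
Difference between every 2 time points (later minus earlier, on the log2(value + 1) scale, red higher and blue lower at the later time) for the 6 genes with a called pair. Dots mark the 33 pairs with an adjusted *P*-value below 0.05 when all livers were included. Nampt and Nmrk1 share 6 dots that set ZT9, ZT13 and ZT17 above ZT1 and ZT5, while in Nmnat3 the 3 times of the dark lie below ZT5 and ZT9.

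A 12 h cosine added to the 24 h cosine called none of the 10 genes by limma, where 0.872% of all genes were called. At an unadjusted *P*-value below 0.05, where 12.6% of all genes were, stood 3 of the 10, Nmnat3 (amplitude 0.31 ± 0.064, SE, adjusted *P*-value 0.0609), Nnmt (adjusted *P*-value 0.271) and Acmsd (adjusted *P*-value 0.371). The 12 h term of Nmnat3 was called when values were rescaled to equal totals, at 0.32 and an adjusted *P*-value of 0.0424.

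Levels of different genes were compared per kilobase of exon. Qprt had the highest mean, 62.4 normalized reads per kb, followed by Nadk (48.9), Naprt (37.2), Nnmt (25.7), Nampt (18.4), Acmsd (9.22), Nmrk1 (8.55), Nmnat1 (4.09), Sirt1 (2.21) and Nmnat3 (0.941). Nmrk1, Nmnat1, Sirt1 and Nmnat3 stood in this order in 18 of 18 livers. Qprt exceeded Nadk in 15 of the 18 livers, and in all 3 livers of ZT13 Nadk was the higher. Nadk exceeded Naprt and Nampt exceeded Acmsd in 17 livers each, and Naprt exceeded Nnmt in 15. Nnmt exceeded Nampt per kb in 13 of the 18 livers and Acmsd exceeded Nmrk1 in 11, and in the remaining livers each of these pairs stood the other way round. The kilobases count every annotated exon of a gene, and transcripts in use may be shorter.

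The sequence before the start of 3 of the genes is shown because Nampt and Nmrk1 had peaks within the same hour while Sirt1 was not called. RefSeq start windows of 300 bases (250 before and 50 after the start, GRCm38.p6) were found for 8 of the 10 genes. Both strands were searched for CACGTG, the E-box bound by CLOCK and BMAL1, for its variant CACGTT, for TTATGTAA and the wider TTANNTAA of the D-box, which contains it, and for AGGTCA, the core of the ROR element. Capitals mark matches, and no stretch takes in an annotated exon of its gene. The stretches of Nampt and Sirt1 lie inside these genes as annotated in GENCODE, where other transcripts start farther upstream. The Nampt stretch is chr12:32820085-32820334 (+ strand), that of Nmrk1 chr19:18631766-18631949 (+ strand) and that of Sirt1 chr10:63339051-63339285 (− strand).
Nampt: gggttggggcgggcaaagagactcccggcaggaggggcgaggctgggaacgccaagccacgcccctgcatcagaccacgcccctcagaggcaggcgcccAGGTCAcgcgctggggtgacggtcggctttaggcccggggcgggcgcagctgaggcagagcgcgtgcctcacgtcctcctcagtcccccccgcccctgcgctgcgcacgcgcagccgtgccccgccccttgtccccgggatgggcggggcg
Nmrk1: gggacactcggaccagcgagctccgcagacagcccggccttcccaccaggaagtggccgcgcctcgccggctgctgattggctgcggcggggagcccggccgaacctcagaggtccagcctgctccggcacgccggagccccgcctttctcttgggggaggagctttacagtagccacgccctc
Sirt1: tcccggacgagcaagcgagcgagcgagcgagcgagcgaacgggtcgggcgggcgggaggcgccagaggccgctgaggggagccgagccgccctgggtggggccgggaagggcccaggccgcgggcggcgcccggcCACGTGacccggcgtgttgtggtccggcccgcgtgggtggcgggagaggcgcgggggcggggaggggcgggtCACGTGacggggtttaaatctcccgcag

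CACGTG stood 115 and 43 bases before the start of Sirt1, the gene with no called rhythm, and 40 bases before the downstream start of Nadk, and it is held by 7.15% of the 32851 windows of the table. Nampt held AGGTCA 151 bases before its start and no E-box letters in this window. Acmsd held AGGTCA on the opposite strand 232 bases before its start and Nmnat3 held it 23 bases after, and 16.3% of windows hold it. TTANNTAA (6.003% of windows) stood 165 bases before the upstream start of Nadk. No window of the 8 genes held CACGTT (4.68% of windows) or TTATGTAA (0.938%), and those of Nmrk1, Nmnat1 and Qprt held none of these letters. Such matches describe the windows alone.

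For each rhythmic gene, the genes of most similar time course were found by the root mean square difference between standardized profiles over the 18 livers, among 12480 genes with a mean of at least 1. Nearest to Nampt were Ivns1abp (0.272), Marveld1 (0.308) and Homer2 (0.336), against a median difference of 1.42 to all genes. The nearest to Nmrk1 were Aifm2 (0.337), Lonrf1 (0.376) and Gm43305 (0.379), and to Nadk Unc5b (0.344), Nfic (0.423) and Gna11 (0.429). Nmnat3 was nearest to Eepd1 (0.434), Rnf152 (0.471) and 1810013L24Rik (0.480). Acmsd was nearest to Hist2h2be (0.451), Irak2 (0.513) and Atp2b2 (0.525). Profiles less like any other gene were those of Nnmt (Ankrd10 at 0.544, Gm12744 at 0.547, Cdc42se1 at 0.573), Naprt (Arhgef18 at 0.498, Abhd8 at 0.575, Saraf at 0.584) and Qprt (Pnpla7 at 0.477, Fabp5 at 0.616, Arsg at 0.616).

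The rest of the pathway was taken from lists of 54 further symbols, of which 43 were measured. The 24 h cosine called 26 of these 43 genes (35.3% of all genes), 14 with a peak in the dark and 12 in the light, and JTK called 8 (14.1% of all genes). The 8 were Pnp, Kynu, Ido2, Slc25a47, Tnks2, Aox3, Noct and Parp12, and JTK called no other gene of the 43. Among the 10 genes above, 6 of the 8 called had their peak in the dark, and of all called genes 48.4% did. Peaks were assigned by their fitted time alone. The peak range of Nadk, from 11.4 h to 14.3 h, began before lights off, and its lowest peak among the alternatives was 11.9 h. That of Qprt, from −0.82 h to 4.18 h, began before lights on. The calls of Naprt and Qprt were also lost in some alternatives. With the 10 genes included, the lists had 6 of 9 called on the tryptophan route, 7 of 8 in salvage, 3 of 3 in nicotinamide methylation and oxidation, 3 of 4 transporters, 3 of 7 sirtuins, 9 of 14 other NAD consumers, 3 of 6 in hydrolysis and repair, and 1 of 3 in NADP and NAD redox.

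In salvage, Pnp, a purine nucleoside phosphorylase that splits nicotinamide riboside, had an amplitude of 0.69 ± 0.059 (SE) and a peak at 22.0 h (adjusted *P*-value 9.24e-07). Its mean rose from 48.6 ± 11.7 (SD, n = 3) at ZT9 to 117 ± 7.16 (SD, n = 3) at ZT1, when Nampt and Nmrk1 were at their lowest. Nt5e, an ectonucleotidase, peaked at 21.8 h (amplitude 0.51, adjusted *P*-value 0.0222). On the tryptophan route, Kynu (kynureninase) peaked at 0.963 h with an amplitude of 0.40 ± 0.036 (SE, adjusted *P*-value 1.22e-06), within the peak range of Qprt. Ido2, a dioxygenase that opens the tryptophan ring, peaked at 19.8 h (amplitude 0.24) and Afmid, the kynurenine formamidase, at 17.7 h (amplitude 0.38). The NAD synthetase gene Nadsyn1 peaked at 7.25 h (amplitude 0.20).

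Among the sirtuins, the mitochondrial Sirt3 peaked at 8.11 h (amplitude 0.20, adjusted *P*-value 0.00334) and Sirt4 at 21.2 h (amplitude 0.28, adjusted *P*-value 0.006002). JTK called neither, at q = 0.0537 and q = 0.104. The peak ranges of Sirt3 and Sirt4 did not reach that of Nampt. Of the Parp and tankyrase genes, Tnks2 (tankyrase 2) peaked at 4.19 h (amplitude 0.23, adjusted *P*-value 0.000109), Parp12 at 5.73 h, Parp4 at 5.98 h and Parp10 at 7.86 h. Parp16 (19.4 h), Parp9 (21.2 h) and Parp2 (22.1 h) peaked in the dark. Aox3, an aldehyde oxidase, peaked at 2.08 h (amplitude 0.39) with means from 546 ± 64.2 (SD, n = 3) at ZT13 to 1092 ± 17.9 (SD, n = 3) at ZT1, while Nnmt, whose methylated product aldehyde oxidases oxidize, peaked at 14.1 h. Noct, whose product acts on NADPH, peaked at 12.8 h (amplitude 0.43, adjusted *P*-value 0.00175), the time of Nadk. The mitochondrial carrier Slc25a47 peaked at 7.86 h (amplitude 0.69), the nucleoside transporter Slc29a1 at 17.2 h (amplitude 0.31) and Nudt5, an ADP-ribose hydrolase, at 18.04 h (amplitude 0.18). Of the 26 calls, 16 held in each of the alternatives run and 10 were lost in at least 1, among the named genes those of Nudt5, Parp9, Nt5e and Parp16.

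**Figure D4:**
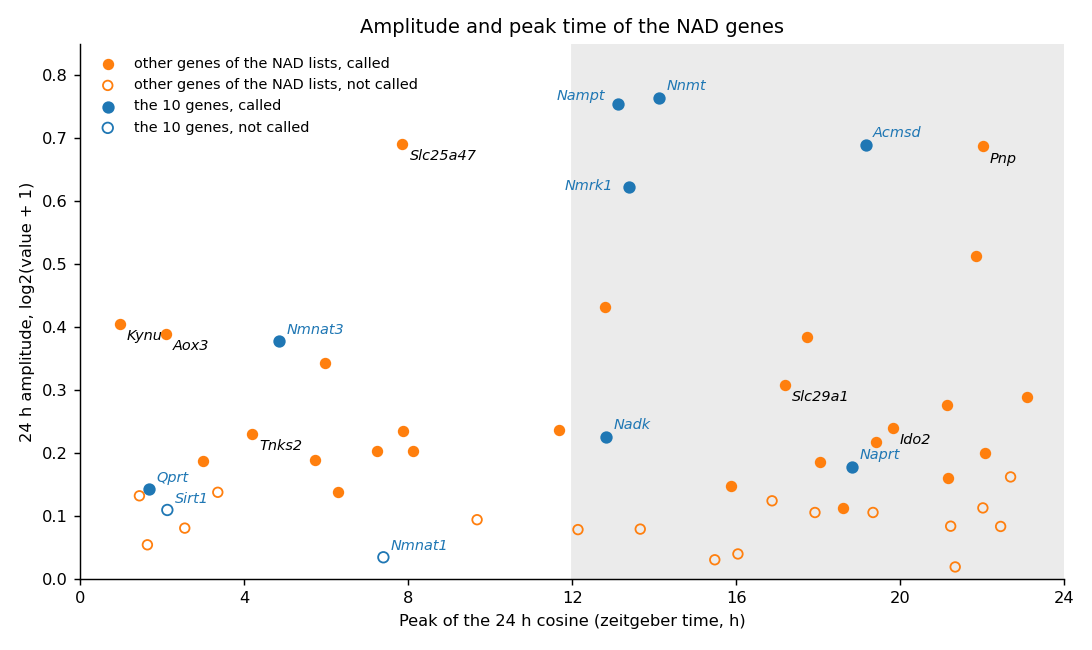
Amplitude on the log2 scale against peak time in hours of zeitgeber time for the 10 genes (blue) and the 43 other measured genes of the NAD lists (orange), filled where the 24 h cosine was called and open where it was not, with the dark phase shaded. Nampt, Nmrk1, Nnmt and Nadk stand between 12.8 h and 14.1 h, where Noct is the one filled orange point, and Pnp, at 22.0 h, has an amplitude of 0.69.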

How the data were processed

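RNA was measured in 18 livers, 3 at each of 6 time points. The authors trimmed reads (CASAVA 1.8.2, cutadapt), estimated counts per gene with RSEM 1.2.20 on GRCm38 and normalized them with limma. The deposited signal is on a linear scale and is an estimated count with 0.5 added, per 1000000 reads of the effective library. Estimates were multiples of 0.01 reads, so no count test was used. Genes above the lowest value in at least 1 liver (14449) were tested with limma 3.58.1 (R 4.3.3) on log2(value + 1), which understates folds of low genes, for a 24 h cosine, a 12 h cosine beside it, any difference among times, pairs of times, and dark against light, all with Benjamini–Hochberg adjustment over all genes. A rank test after JTK, with periods of 20, 24 and 28 h, was written in Python 3.11.15 from its description. The limma fits and the rank test were tried on simulated data. Annotation was GENCODE M21, and exons were merged per gene for lengths. The members and lists were chosen with earlier results of these data known. All 10 genes are named, the 20 other NAD genes of lowest adjusted *P*-value among those called, and the 3 nearest profiles of each rhythmic gene. Alternatives changed the pseudocount (0.1 and 5), a mean of at least 1, the scaling, the variance model, a depth covariate, and left out each liver. JTK was also run with equal cosines taken as 1 group.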

Additional observations from a re-analysis of the deposited data

How the results depend on the processing

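Nampt and Nmrk1 kept every call of the 24 h cosine, JTK, the time points and dark against light under each alternative run, with amplitudes between 0.72 and 0.77 and between 0.55 and 0.65, and no result reversed its direction. The count of genes called by the 24 h cosine was 7 to 8 of 10 across settings and 6 to 8 when livers were left out one at a time, and the count by the time points stayed at 6. JTK called 3 to 6 and, with livers left out, 3 to 5, and over all genes 2039, against 1266 without replicate 2 of ZT5 and 3237 with equal cosines taken as 1 group. Genes higher in the dark numbered 1724 and lower 1780, and with equal totals 1076 and 2464. Dark against light called 5 to 7 in both, and pairs gave 31 to 39 calls and, with livers left out, 28 to 39. With values rescaled to a total of 1000000, the 12 h term called 1 gene, Nmnat3, in place of none, and stayed at 0 with any liver left out. Qprt lost its 24 h call in 15 of 26 alternatives, by median ratio scaling with an adjusted *P*-value of 0.0585, and Naprt in 2. With the depth covariate the step of Nmrk1 from ZT5 to ZT9 and that of Nampt from ZT17 to ZT21 had adjusted *P*-values of 0.0576 and 0.0536, and with equal totals the latter had 0.0584. JTK lost Nnmt in 9 of 22 alternatives, and it gained Acmsd in 3 and Nmnat3 in 1, with equal cosines taken as 1 group (q = 0.0269). The causes were not tested. No paired analysis was possible because each mouse gave 1 liver and replicate numbers only name samples. With 3 livers per time, the 95% interval of Sirt1 allowed a cosine of up to 1.39-fold and that of Nmnat1 up to 1.22-fold. Both intervals may be too narrow, since the amplitudes were small.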
